A study of Homo sapiens with 16 samples.

Results

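AK5, ASB2, C15orf48, CCDC102B and CPNE7 are 5 genes of intracellular proteins, and are among 55 protein-coding genes that were higher in reporter-positive than in reporter-negative cells of both breast cancer lines and both serum conditions. They were selected on the same comparisons, among 15286 genes tested in both serum conditions. Their rise is therefore what chose them, and it is given here as a description, with no test.

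MDA-MB-231 and MDA-MB-436 are human triple-negative breast cancer cell lines of mesenchymal type. All cells, the negative ones included, carried the 7TGP plasmid, in which TCF-binding sites drive eGFP when β-catenin is active, and had been selected with puromycin. Repeated flow sorting on eGFP gave a 7TGP-POS and a 7TGP-NEG subline of each line (POS and NEG below). Each of the 8 groups (POS or NEG, either line, either serum) had 2 libraries of RNA from cultured cells. Low serum cultures were kept for 3 days at 0.5% FBS, and those in standard serum for 6 days at 10% FBS. Each subline is 1 sorted population, so that its sorting history and its reporter state cannot be told apart. All p-values and SE below rest on the spread between the 2 cultures of a group, and not on that between separately sorted sublines. Per the methods, the lines were kept in different culture media, so that line and medium cannot be told apart either. Per the methods, low serum libraries were depleted of ribosomal RNA and standard serum libraries were selected for polyadenylated RNA, on other sequencers. The serum conditions are therefore set side by side and not compared.

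Library totals ranged from 27918418 to 32667756 counts in low serum and from 31827130 to 46044073 in standard serum. The mesenchymal marker VIM was at 369 to 2454 TPM (transcript abundance scaled by gene length and library total) in low serum and 484 to 3882 TPM in standard serum, and ZEB1 was at 11.0 to 49.7 TPM over both. ESR1, PGR and CDH1 reached at most 0.20 TPM, EPCAM at most 12.1 TPM and ERBB2 16.9 to 27.8 TPM. Of the leukocyte markers, CD3E had too few counts to be tested, while CD14 reached 14.8 TPM, PTPRC 4.04 TPM and CSF1R 1.68 TPM. VIM was lower in MDA-MB-231 POS (log2 fold change −1.05 ± 0.05 SE, adjusted p = 2.69e-20 in low serum, and −1.03 ± 0.08, adjusted p = 1.17e-08 in standard serum), and PTPRC was higher in MDA-MB-231 POS in low serum (1.14 ± 0.19 SE, adjusted p = 3.61e-06, edgeR). VIM was higher in MDA-MB-436 POS under the fold threshold (0.16 ± 0.05 in low serum, 0.49 ± 0.08 in standard serum, adjusted p = 0.00732 and 4.77e-05). At under 1 CPM, PGR was called lower in MDA-MB-436 POS in low serum (−1.93 ± 0.46, adjusted p = 0.000545) and ESR1 higher in MDA-MB-231 POS in standard serum (adjusted p = 4.03e-05), where NEG held 0 counts. The part of these markers in the values below was not tested.

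The 5 proteins work in different places in the cell. AK5 is an adenylate kinase, an enzyme that moves phosphate between adenine nucleotides. ASB2 is the substrate-binding subunit of a ubiquitin ligase built on CUL5, and filamins are among its known substrates. C15orf48, also called COXFA4L3, is a small mitochondrial protein related to NDUFA4, a subunit of cytochrome c oxidase (complex IV), and is known as a gene of inflammatory responses. CCDC102B is a protein of the centrosome linker, which holds centrioles together, and CPNE7 is a copine, one of a family of proteins that bind membranes when calcium rises.

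The genes lie on 5 chromosomes. On GRCh37, AK5 spans chr1:77747704-78025651 on the plus strand, ASB2 spans chr14:94400512-94443085 on the minus strand, C15orf48 spans chr15:45722777-45740959 on the plus strand, CCDC102B spans chr18:66382446-66722426 on the plus strand and CPNE7 spans chr16:89642166-89663654 on the plus strand. They differ widely in size, from 18183 bases for C15orf48 to 339981 for CCDC102B.

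The 250 bases before the annotated start sites of the genes were read from RefSeq (GRCh38.p14), which gave windows for 4 of the 5 genes. The windows were searched on both strands for the TCF/LEF forms ATCAAAG and TTCAAAG, the AP-1 form TGANTCA, and the NF-κB consensus. Only 1 match was found, a TTCAAAG in the window of the first ASB2 start site, 12 bases before that site. TTCAAAG occurred in 3.80% of all 35116 windows, ATCAAAG in 2.26%, TGANTCA in 6.57% and the NF-κB consensus in 5.21%. Either TCF/LEF form occurred in 5.94%. These shares are for single windows, while several windows of the 4 genes were searched for all forms. The single match is therefore not read as a result about ASB2. The ASB2 stretch is shown with the match in capitals (chr14:93976571-93976600, minus strand), and lies in an exon of a longer annotated transcript. The stretch before C15orf48 (chr15:45430360-45430578, plus strand) and the window before the first AK5 start site (chr1:77281769-77282018, plus strand) are shown as windows in which none of these letters were found.
ASB2: aaactccctgcTTCAAAGgacagcgtttca
C15orf48: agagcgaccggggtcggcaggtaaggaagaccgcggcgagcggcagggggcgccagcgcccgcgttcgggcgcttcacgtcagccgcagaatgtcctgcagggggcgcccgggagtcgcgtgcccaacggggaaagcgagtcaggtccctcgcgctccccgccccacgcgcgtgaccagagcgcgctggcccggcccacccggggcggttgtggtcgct
AK5: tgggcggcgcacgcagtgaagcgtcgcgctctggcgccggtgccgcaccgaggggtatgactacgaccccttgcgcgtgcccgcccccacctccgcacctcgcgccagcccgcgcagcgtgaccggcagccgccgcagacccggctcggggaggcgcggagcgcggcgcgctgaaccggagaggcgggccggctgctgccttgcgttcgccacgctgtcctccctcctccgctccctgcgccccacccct
The windows also differ in base composition. G and C made up 77.2% of the first AK5 window, 73.6% of the C15orf48 window and 48.8% of the first ASB2 window, against a median of 58.0% over all windows.

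The values below are CPM, the count of a gene per 1000000 counts of its library. Levels of different genes are compared only in the authors' TPM, which is scaled by gene length.

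AK5 was 2.50-fold to 3.56-fold higher in POS. In low serum, AK5 was at 1.01 and 1.47 CPM in MDA-MB-231 NEG and at 4.51 and 4.09 CPM in MDA-MB-231 POS. In MDA-MB-436 it was at 2.76 and 2.30 CPM in NEG and at 8.66 and 8.63 CPM in POS. All libraries of POS were above those of NEG in each line, and the 4 groups formed separate steps from MDA-MB-231 NEG to MDA-MB-436 POS. In standard serum, AK5 was at 1.79 and 1.76 CPM in MDA-MB-231 NEG and at 4.53 and 4.68 CPM in POS. The MDA-MB-436 NEG libraries held 1.39 and 1.56 CPM, and its POS libraries held 5.26 and 5.74 CPM. The lines lay close together here, with the NEG groups 1.20-fold apart and the POS groups 1.19-fold apart, and no libraries of neighbouring groups overlapped. The log2 fold changes, with SE, were 1.80 ± 0.20 and 1.75 ± 0.15 (MDA-MB-231, then MDA-MB-436) in low serum, then 1.32 ± 0.17 and 1.83 ± 0.17 in standard serum.

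ASB2 was 2.73-fold to 6.05-fold higher in POS, from low levels. In low serum, ASB2 was at 3.26 and 3.67 CPM in MDA-MB-231 NEG and at 10.1 and 8.78 CPM in POS. In MDA-MB-436 it was at 0.735 and 0.384 CPM in NEG and at 2.53 and 2.79 CPM in POS. Even the POS cells of MDA-MB-436 lay below the NEG cells of MDA-MB-231, with no overlap of libraries. In standard serum, ASB2 was at 0.855 and 0.660 CPM in MDA-MB-231 NEG and at 4.56 and 5.05 CPM in POS. The MDA-MB-436 NEG libraries held 0.533 and 0.281 CPM, and its POS libraries held 1.32 and 1.54 CPM. The NEG values of MDA-MB-436 rest on few reads, 24 and 11 counts in low serum, then 18 and 11 in standard serum. The log2 fold changes were 1.45 ± 0.15 and 2.20 ± 0.26 in low serum, then 2.60 ± 0.24 and 1.77 ± 0.31 in standard serum. An antisense RNA over 999 bases of ASB2 exons held at most 3 counts in any library.

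C15orf48 had the highest fold of the 5 genes in both low serum comparisons, and ranged from 2.78-fold to 11.5-fold. In low serum, C15orf48 was at 2.67 and 3.50 CPM in MDA-MB-231 NEG and at 21.8 and 22.0 CPM in POS. In MDA-MB-436 it was at 0.306 and 0.559 CPM in NEG, from 10 and 16 counts, and at 4.99 and 4.94 CPM in POS. POS and NEG did not overlap in either line, and the POS replicates differed little. In standard serum, C15orf48 was at 3.72 and 3.14 CPM in MDA-MB-231 NEG and at 20.6 and 18.6 CPM in POS. The MDA-MB-436 NEG libraries held 2.55 and 2.25 CPM, and its POS libraries held 6.56 and 7.33 CPM. The order of the groups was the same in both serum conditions, from MDA-MB-436 NEG through MDA-MB-231 NEG and MDA-MB-436 POS to MDA-MB-231 POS, with no overlap between neighbours. The log2 fold changes were 2.83 ± 0.13 and 3.52 ± 0.24 in low serum, then 2.46 ± 0.14 and 1.48 ± 0.15 in standard serum.

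C15orf48 shares sequence with other annotated RNAs. The hairpin of MIR147B lies within its exons, and the mature product is shown because it comes from the same transcript, with bases 2 to 8, the seed, in capitals (RefSeq, GRCh38.p14, chr15:45433098-45433118, plus strand).
hsa-miR-147b-3p: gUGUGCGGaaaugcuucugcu
The MIR147B row held 0 counts in all 16 libraries. These libraries were not made to capture small RNA, so the mature form was not measured here. SLC30A4-AS1, on the same strand, shares 213 bases with C15orf48 exons. It held 197 and 154 counts in MDA-MB-436 NEG and 61 and 65 in MDA-MB-436 POS in low serum, with 147 and 160 against 68 and 68 in standard serum, the opposite order to C15orf48. In MDA-MB-231 it lay in the same order, at 3 and 7 counts in NEG and 27 and 20 in POS in low serum, with 0 and 2 against 7 and 12 in standard serum. An antisense RNA over 1069 bases of C15orf48 exons held at most 7 counts.

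CCDC102B was 2.56-fold to 6.20-fold higher in POS. In low serum, CCDC102B was at 3.03 and 2.74 CPM in MDA-MB-231 NEG and at 7.82 and 7.02 CPM in POS. In MDA-MB-436 it was at 0.980 and 1.19 CPM in NEG and at 3.73 and 4.01 CPM in POS. All 4 groups were separate, with MDA-MB-436 NEG lowest and MDA-MB-231 POS highest. In standard serum, CCDC102B was at 0.772 and 0.880 CPM in MDA-MB-231 NEG and at 5.33 and 5.30 CPM in POS. The MDA-MB-436 NEG libraries held 0.740 and 0.945 CPM, and its POS libraries held 2.26 and 2.28 CPM. The NEG groups of the lines overlapped, at 1.02-fold apart, while the POS groups were 2.34-fold apart. The log2 fold changes were 1.37 ± 0.15 and 1.83 ± 0.20 in low serum, then 2.63 ± 0.21 and 1.36 ± 0.22 in standard serum.

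CPNE7 was 2.04-fold to 9.36-fold higher in POS, with the widest spread between POS replicates among the 5 genes. In low serum, CPNE7 was at 2.19 and 2.00 CPM in MDA-MB-231 NEG and at 5.85 and 3.88 CPM in POS. In MDA-MB-436 it was at 7.71 and 6.98 CPM in NEG and at 15.2 and 19.3 CPM in POS. The order here followed the line (and its medium), since both groups of MDA-MB-436 lay above both groups of MDA-MB-231. In standard serum, CPNE7 was at 1.96 and 2.86 CPM in MDA-MB-231 NEG and at 17.9 and 28.6 CPM in POS. The MDA-MB-436 NEG libraries held 13.5 and 14.3 CPM, and its POS libraries held 26.4 and 32.6 CPM. The POS groups of the lines overlapped, while the NEG groups were 5.76-fold apart. The log2 fold changes were 1.23 ± 0.19 and 1.21 ± 0.13 in low serum, then 3.23 ± 0.29 and 1.03 ± 0.24 in standard serum.

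**Figure D1:**
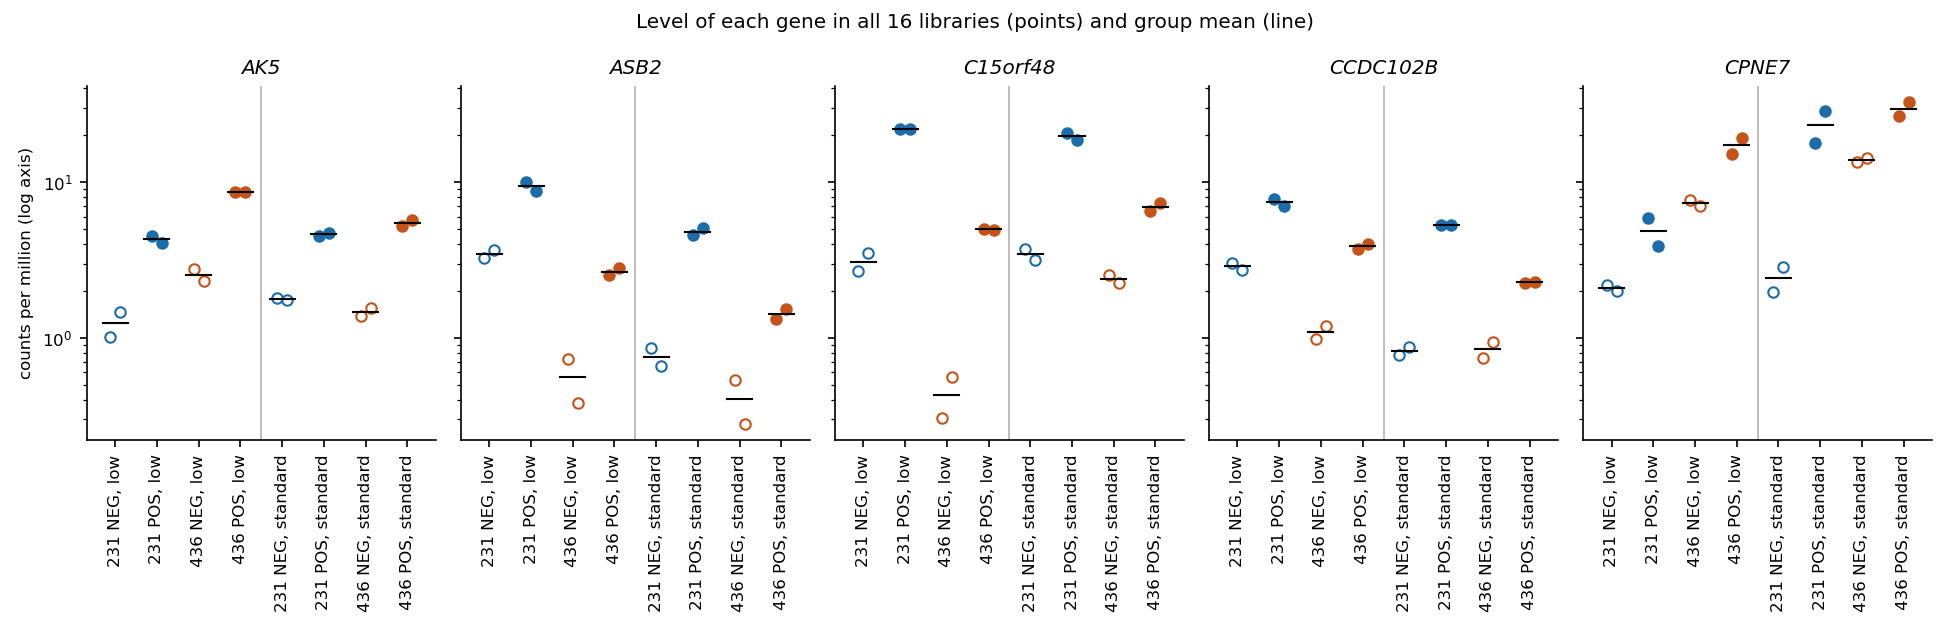
CPM of each gene (log axis) in the 16 libraries, with open points for NEG, filled points for POS, blue for MDA-MB-231, orange for MDA-MB-436 and a line at the mean of each group of 2. Filled points lie above open points of the same line and serum in every panel, and the CPNE7 points of MDA-MB-231 POS in standard serum lie at 17.9 and 28.6.

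All 5 genes passed the filter on low counts in both serum conditions. A gene is called higher here when its adjusted p is under 0.05 and its log2 fold change at least 1, and all 5 were so called in each of the 4 comparisons, as the selection required. Of all genes tested, 3.5% were called higher in MDA-MB-231 POS and 6.52% in MDA-MB-436 POS in low serum, then 4.96% and 6.47% in standard serum. Both POS libraries were above both NEG libraries for all 5 genes in all comparisons. That held for 31.2% of all genes tested in MDA-MB-231 and 39.3% in MDA-MB-436 in low serum, then for 38.6% and 41.9% in standard serum. In order of their lowest log2 fold change, the 5 genes ranked from 25 (C15orf48, 1.48) to 51 (CPNE7, 1.03) among the 55. The genes just inside the threshold were ITGA11 (1.00) and RARB (1.01), and those just outside were SCG2 (0.99) and LCP1 (0.99). CPNE7 in MDA-MB-436 in standard serum lies near the threshold, and its log2 fold change there was 0.98 without NEG replicate 1, 1.06 without NEG replicate 2 and 0.88 without POS replicate 2, none of which was called. In MDA-MB-231 in low serum it was 0.92 without POS replicate 1, again not called.

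**Figure D2:**
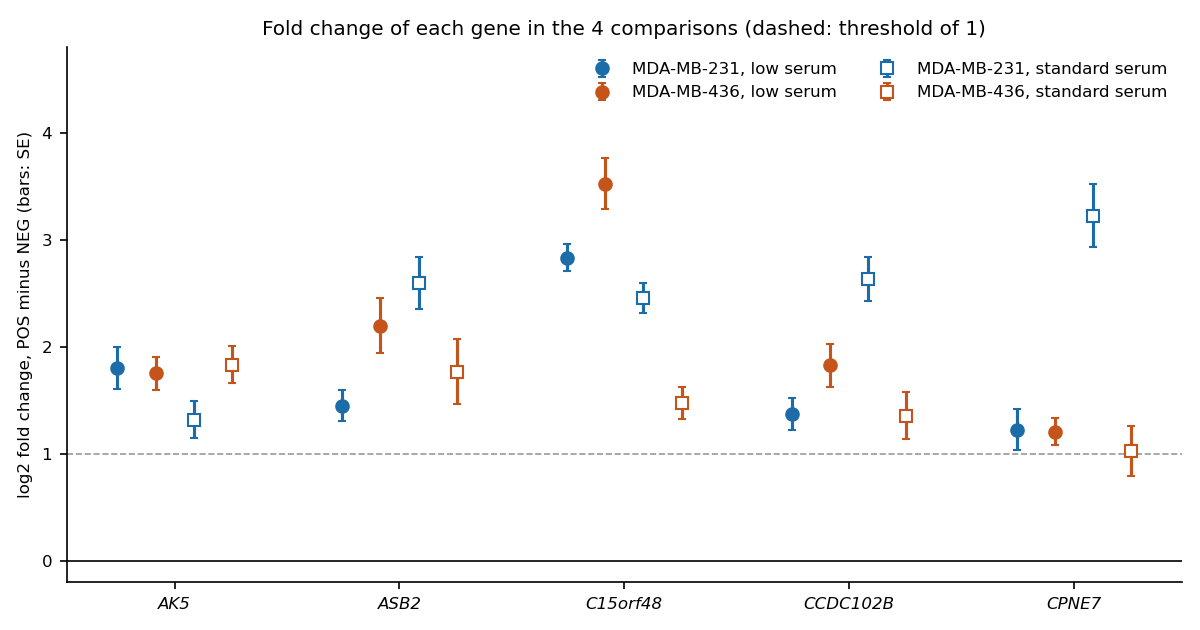
Log2 fold change of POS over NEG for each gene, with SE as bars, in low serum (filled circles) and standard serum (open squares) for MDA-MB-231 (blue) and MDA-MB-436 (orange). The largest value is that of C15orf48 in MDA-MB-436 in low serum, 3.52, and the smallest that of CPNE7 in MDA-MB-436 in standard serum, 1.03.

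The size of the rise in each line is given as a description. In low serum, the log2 fold change in MDA-MB-231 minus that in MDA-MB-436 was 0.05 ± 0.26 (SE) for AK5 and 0.02 ± 0.22 for CPNE7. It was −0.75 ± 0.32 for ASB2, −0.69 ± 0.32 for C15orf48 and −0.46 ± 0.26 for CCDC102B, all with the larger rise in MDA-MB-436. In standard serum, the difference was −0.51 ± 0.25 for AK5, while the other 4 genes had the larger rise in MDA-MB-231. The values were 0.83 ± 0.42 for ASB2, 0.98 ± 0.21 for C15orf48, 1.27 ± 0.32 for CCDC102B and 2.20 ± 0.38 for CPNE7. Both terms of these differences chose the genes, so they were not tested.

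The difference between the lines, which includes that between their media, was not used in the selection and could be tested. The test takes its spread from the 2 cultures of each group, so variation between sublines of a line is not part of its p-values. It was taken as the mean of both MDA-MB-231 groups minus the mean of both MDA-MB-436 groups, on the log2 scale, with edgeR's quasi-likelihood test and Benjamini-Hochberg adjustment over all genes. In low serum, ASB2 (2.32 ± 0.14 SE, adjusted p = 1.36e-18), C15orf48 (2.61 ± 0.14, adjusted p = 8.69e-21) and CCDC102B (1.29 ± 0.13, adjusted p = 3.89e-12) were higher in MDA-MB-231. CPNE7 was lower in MDA-MB-231 (−1.70 ± 0.11, adjusted p = 3.77e-14), and AK5 was also lower but within the fold threshold (−0.91 ± 0.13, adjusted p = 3.21e-08). Without MDA-MB-231 NEG replicate 2 AK5 was called (−1.05, adjusted p = 4.73e-07), and on the log2 TPM scales CCDC102B was not (0.84 and 0.50 with pseudocounts of 0.1 and 1). With 4 of 5 called, the background is that 19.4% of all genes tested were called higher in MDA-MB-231 and 21.4% higher in MDA-MB-436. In standard serum, ASB2 (1.55 ± 0.20, adjusted p = 1.17e-06) and C15orf48 (1.22 ± 0.10, adjusted p = 2.44e-09) were higher in MDA-MB-231, and CPNE7 was lower (−1.23 ± 0.19, adjusted p = 0.00103). CCDC102B differed by 0.80 ± 0.16 (adjusted p = 0.000145), under the fold threshold, and AK5 by 0.21 ± 0.12 (adjusted p = 0.117). The background in standard serum was 21.1% called higher in MDA-MB-231 and 25.7% called higher in MDA-MB-436. ASB2 and C15orf48 were thus higher in MDA-MB-231, and CPNE7 higher in MDA-MB-436, in both serum conditions. For CPNE7 in standard serum, the NEG groups differed by −2.33 ± 0.30 and the POS groups by −0.13 ± 0.23.

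The line and the reporter state took different shares of each gene's variation. In low serum, the lines accounted for 65.5% of the sum of squares of log2 CPM for CPNE7 and 59.6% for ASB2, against 20.1% for AK5. In standard serum, the lines accounted for 1.74% for AK5 and 31.2% for ASB2, and POS against NEG for 97.9% and 65.8%. The genes were chosen on POS against NEG, so these shares are descriptions only. The share between replicates was 0.329% to 3.00% in all cases.

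Most of the 5 genes are lowly expressed on the TPM scale. The mean TPM of AK5, ASB2 and CCDC102B over the 8 libraries lay above only 25.5% to 27.1% of the genes tested in low serum and 20.6% to 22.7% in standard serum. C15orf48 lay above 51.9% and 56.3%, and CPNE7 above 41.0% and 55.9%. C15orf48 had the highest mean TPM of the 5 in all 4 MDA-MB-231 groups and CPNE7 in all 4 MDA-MB-436 groups. In POS cells in standard serum, C15orf48 was at 52.0 ± 4.4 TPM (SD, n = 2) in MDA-MB-231, and CPNE7 was at 36.4 ± 5.2 TPM in MDA-MB-436.

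Relatives and partners of the 5 proteins were taken as 5 lists of 79 genes in all. In low serum, 68 were tested, of which 0 were called higher and 1 lower in MDA-MB-231 POS, and 3 higher and 0 lower in MDA-MB-436 POS. In standard serum, 66 were tested, of which 2 were called higher and 1 lower in MDA-MB-231 POS, and 4 higher and 2 lower in MDA-MB-436 POS. Where 0 were called, 15 genes were higher in MDA-MB-231 POS and 23 lower in MDA-MB-436 POS at an unadjusted p under 0.05, and DESeq2 called 0 of them. Most of these genes also had an adjusted p under 0.05 (edgeR) and missed only the fold threshold. The calls for higher genes made up 0.0% and 4.41% in low serum, then 3.03% and 6.06% in standard serum, beside the shares over all genes given above. Of all genes tested, 2.4% and 4.03% were called lower in low serum, then 2.72% and 6.06% in standard serum.

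**Figure D3:**
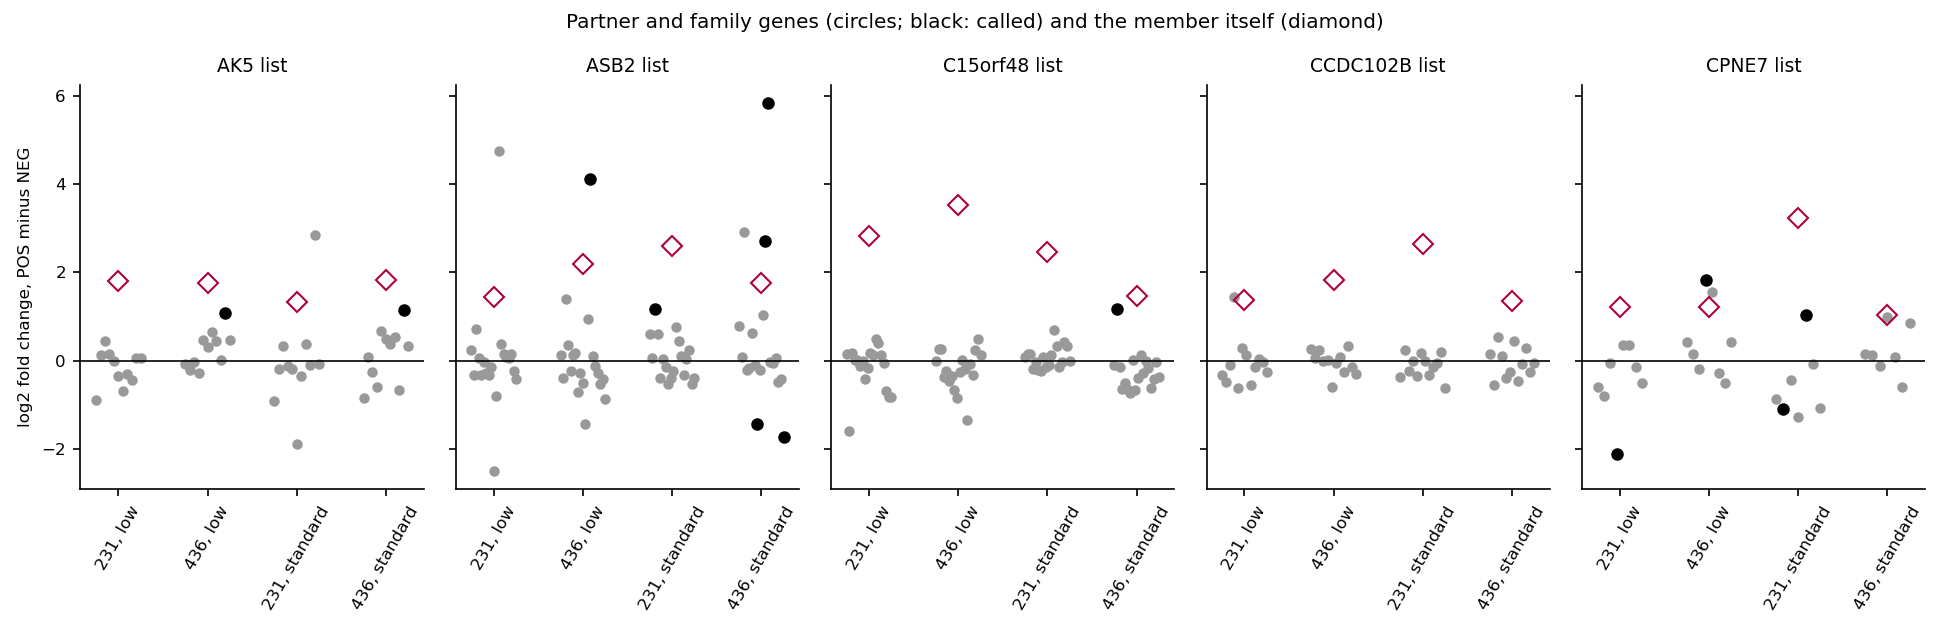
Log2 fold change of POS over NEG for the tested genes of the 5 lists (circles, black where called) and for the gene each list belongs to (diamond), for MDA-MB-231 (231) and MDA-MB-436 (436) in each serum condition. In the AK5, C15orf48 and CCDC102B lists most circles lie within 1 of 0, and the highest point is CUL5 in MDA-MB-436 in standard serum, at 5.84.

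Among 11 tested adenylate and creatine kinases, the median log2 fold change ran from −0.12 to 0.33 over the 4 comparisons. CKMT1A, a mitochondrial creatine kinase with a near-identical copy in the genome, was called higher in MDA-MB-436 POS in both serum conditions. It rose from 0.888 and 1.26 CPM to 2.18 and 2.40 CPM in low serum (log2 fold change 1.09 ± 0.26, adjusted p = 0.000472), and from 1.07 and 0.919 to 2.24 and 2.31 CPM in standard serum (1.14 ± 0.25, adjusted p = 0.00109). Its reads may be split with the copy, and DESeq2 called it in neither condition (adjusted p = 0.0615 and 0.079). In low serum it was also not called without NEG replicate 1 (0.83). In MDA-MB-231, CKMT1A was at most 0.178 CPM.

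The ASB2 list held the largest change, in CUL5, the scaffold of the ASB2 ubiquitin ligase. In low serum, CUL5 was at 3.67 and 3.28 CPM in MDA-MB-436 NEG and at 59.9 and 62.5 CPM in POS (log2 fold change 4.12 ± 0.09, adjusted p = 2.22e-31). In standard serum it was at 0.948 and 0.740 CPM in NEG and 54.1 and 45.7 CPM in POS (5.84 ± 0.14, adjusted p = 2.8e-15). CUL5 was thus lowest of the 4 groups in MDA-MB-436 NEG. It was at 82.9 and 78.7 CPM in MDA-MB-231 NEG and 98.8 and 110.3 CPM in MDA-MB-231 POS in low serum (0.38 ± 0.06, adjusted p = 1.65e-06, under the fold threshold). The values in MDA-MB-231 in standard serum were 53.7 and 51.5 CPM in NEG and 71.4 and 76.7 CPM in POS (0.44 ± 0.09, adjusted p = 0.00114). The log2 fold change of CUL5 in MDA-MB-231 was smaller than that in MDA-MB-436 by a difference of −3.74 ± 0.11 (adjusted p = 2.13e-26) in low serum and −5.40 ± 0.18 (adjusted p = 1.57e-13) in standard serum, in an edgeR test of that difference chosen after its values were seen. Such a difference between the lines was called for 11.7% of all genes (low serum) and 13.8% (standard serum).

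The filamins FLNA and FLNC were expressed at high levels and differed by less than the fold threshold in most comparisons, though with an adjusted p of at most 0.0263 in each (edgeR). On the log2 scale FLNA differed by 0.14 ± 0.05 (MDA-MB-231 POS) and −0.51 ± 0.05 in MDA-MB-436 POS in low serum, then 0.25 ± 0.08 and −0.47 ± 0.08 in standard serum. FLNC, the muscle-enriched filamin, was lower in POS in all comparisons, with −0.406 (MDA-MB-231) and −0.865 (MDA-MB-436) in low serum. In standard serum it had −0.384 in MDA-MB-231. It was called lower in MDA-MB-436 POS in standard serum (−1.72 ± 0.09, adjusted p = 1.74e-10), at 216 and 254 CPM in NEG and 69.3 and 79.3 CPM in POS. Of the other ASB genes, ASB9 was called lower in the same comparison (−1.43 ± 0.21, adjusted p = 2.01e-05). ASB18 (2.72 ± 0.66, adjusted p = 0.00216) and, in MDA-MB-231 in standard serum, ASB4 (1.17 ± 0.44, adjusted p = 0.0477) were called higher at under 1 CPM in all libraries. The ASB4 call did not hold under most alternative settings, and ASB18 was not called without MDA-MB-436 POS replicate 1 (2.01, adjusted p = 0.0547, edgeR).

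Complex IV subunits were seldom called. Of 18 tested in each serum condition, 0 were called in low serum by edgeR or DESeq2. At an unadjusted p under 0.05, 5 were higher and 1 lower in MDA-MB-231 POS there, and 1 was higher and 7 lower in MDA-MB-436 POS. Most of these also had an adjusted p under 0.05 (edgeR) and missed only the fold threshold. In standard serum 1 was called, NDUFA4L2, a relative of NDUFA4 that was higher in MDA-MB-436 POS (1.18 ± 0.28, adjusted p = 0.0018), at 0.711 and 1.20 CPM in NEG and 1.93 and 2.66 CPM in POS. It was not called without NEG replicate 1 (0.86) or POS replicate 2 (0.95). In the same comparison 14 of the 18 had a log2 fold change below 0, and 7 were lower at an unadjusted p under 0.05. These 7 also had an adjusted p under 0.05 (edgeR) and missed only the fold threshold. The list's median log2 fold change ran from −0.33 to 0.04. NDUFA4 itself had log2 fold changes of 0.15 ± 0.08 and 0.0046 ± 0.08 in low serum, then 0.08 ± 0.08 and −0.09 ± 0.08 in standard serum (adjusted p from 0.217 to 0.981). C15orf48 made up 6.45% and 8.92% of the summed TPM of C15orf48 and NDUFA4 in MDA-MB-231 NEG in low serum and 36.4% and 33.4% in POS. In MDA-MB-436 the same shares were 0.431% and 0.714% in NEG and 6.21% and 6.19% in POS. In standard serum the shares were 6.54% and 5.47% against 25.8% and 24.0% in MDA-MB-231, and 1.74% and 1.83% against 4.88% and 5.29% in MDA-MB-436. NDUFA4 was at 61.8 to 371 TPM. C15orf48 was chosen for its rise in POS and NDUFA4 passed the test in no comparison, so the higher share in POS restates the selection.

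Of 12 tested centrosome linker and centriole genes, 0 were called in any comparison by edgeR or DESeq2, and their median ran from −0.12 to 0.01. At an unadjusted p under 0.05, 1 to 3 were higher and 3 to 6 lower in each comparison. Most of these also had an adjusted p under 0.05 (edgeR) and missed only the fold threshold. CCDC102A, the paralog of CCDC102B, differed on the log2 scale by −0.55 ± 0.08 for MDA-MB-231 POS in low serum (adjusted p = 3.89e-07), 0.08 ± 0.08 in MDA-MB-436 POS (adjusted p = 0.436), and −0.31 ± 0.19 and −0.47 ± 0.19 in standard serum (adjusted p = 0.256 and 0.0682).

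Of the other copines, 8 passed the count filter in low serum and 7 did so in standard serum. CPNE2 was called lower in MDA-MB-231 POS in standard serum, from 33.2 and 31.5 CPM to 16.4 and 15.3 CPM (−1.08 ± 0.09, adjusted p = 3.63e-08), while CPNE7 was higher in the same cells. CPNE5 was called higher there, from 1.05 and 1.19 to 2.43 and 2.37 CPM (1.05 ± 0.25, adjusted p = 0.00337), but not by DESeq2 (adjusted p = 0.0977) or without NEG replicate 1 (0.96). CPNE4 was called lower in MDA-MB-231 POS (−2.12 ± 0.77, adjusted p = 0.026) and higher in MDA-MB-436 POS (1.83 ± 0.64, adjusted p = 0.0148) in low serum, at no more than 0.442 CPM. DESeq2 called CPNE4 in neither line (adjusted p = 0.122 and 0.12). The MDA-MB-231 call was lost without NEG replicate 1 (adjusted p = 0.061), NEG replicate 2 (adjusted p = 0.0972) or POS replicate 2 (−1.62, adjusted p = 0.169), and the MDA-MB-436 call without NEG replicate 1 (1.53, adjusted p = 0.123) or POS replicate 1 (1.67, adjusted p = 0.0888), all in edgeR.

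The genes next to each member were tested in the same fit, since the members were not chosen on them. DOK6, beside CCDC102B, and PTGFR, the tested gene at position 8 after AK5 and 743917 bases from it, are themselves among the 55 genes. Their calls in all 4 comparisons thus restate the selection of that set. Over the 10 tested genes on each side of each member, 0 to 4 of 20 were called higher and 0 to 3 lower, beside 3.5% to 6.52% called higher and 2.4% to 6.06% called lower over all genes. Around CCDC102B, 2 and 3 of 20 were called higher in low serum (MDA-MB-231, then MDA-MB-436) and 4 and 3 of 20 in the standard condition. Around AK5 the counts were 2 and 2, then 3 and 3. Those called higher around CCDC102B, other than DOK6, lay 2824873 bases (CDH7) or farther from it. The median log2 fold change of the neighbours ran from −0.13 to 0.44, beside −0.01 to 0.01 over all genes. The highest median was that of the CPNE7 neighbours in MDA-MB-436 in low serum, 0.44, and it was 0.30 there in standard serum, beside 1.21 and 1.03 for CPNE7 itself. DOK6, an adaptor of receptor tyrosine kinase signalling that begins 345698 bases after CCDC102B, was called higher in all 4 comparisons, by 2.69 ± 0.15 and 3.09 ± 0.17 in low serum (adjusted p = 2.84e-17 and 8.55e-18), then 2.94 ± 0.16 and 1.61 ± 0.17 in standard serum (adjusted p = 1.04e-10 and 2.94e-07). TMX3, a thioredoxin-related protein of the endoplasmic reticulum on the opposite strand, lies 101 bases before CCDC102B. TMX3 had log2 fold changes of 0.50 ± 0.06 and 0.71 ± 0.06 in low serum, then 0.41 ± 0.08 and 0.95 ± 0.09 in standard serum, all with an adjusted p under the threshold (at most 0.000886) and none past the fold threshold.

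The other nearest neighbours were rarely called. Beside AK5, the log2 fold changes of PIGK were 0.04 to 0.26 and those of ZZZ3 −0.07 to 0.53. Beside C15orf48, those of SPATA5L1 were −0.42 to 0.09 and those of SLC30A4 −0.39 to 0.39. Beside CPNE7, CHMP1A had values of 0.08 to 0.42, and RPL13, a ribosomal protein gene with many pseudogene copies, was called higher in MDA-MB-436 POS in low serum (1.06 ± 0.06, adjusted p = 3.02e-18). PRIMA1 and CCDC197, beside ASB2, were not called in any comparison. PIGK, ZZZ3, SPATA5L1, SLC30A4 and CHMP1A each had an adjusted p under 0.05 (edgeR) in some but not all comparisons, and missed only the fold threshold there. For ZZZ3 in MDA-MB-436 POS the adjusted p was 6.88e-07 in low serum and 2.52e-05 in standard serum.

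**Figure D4:**
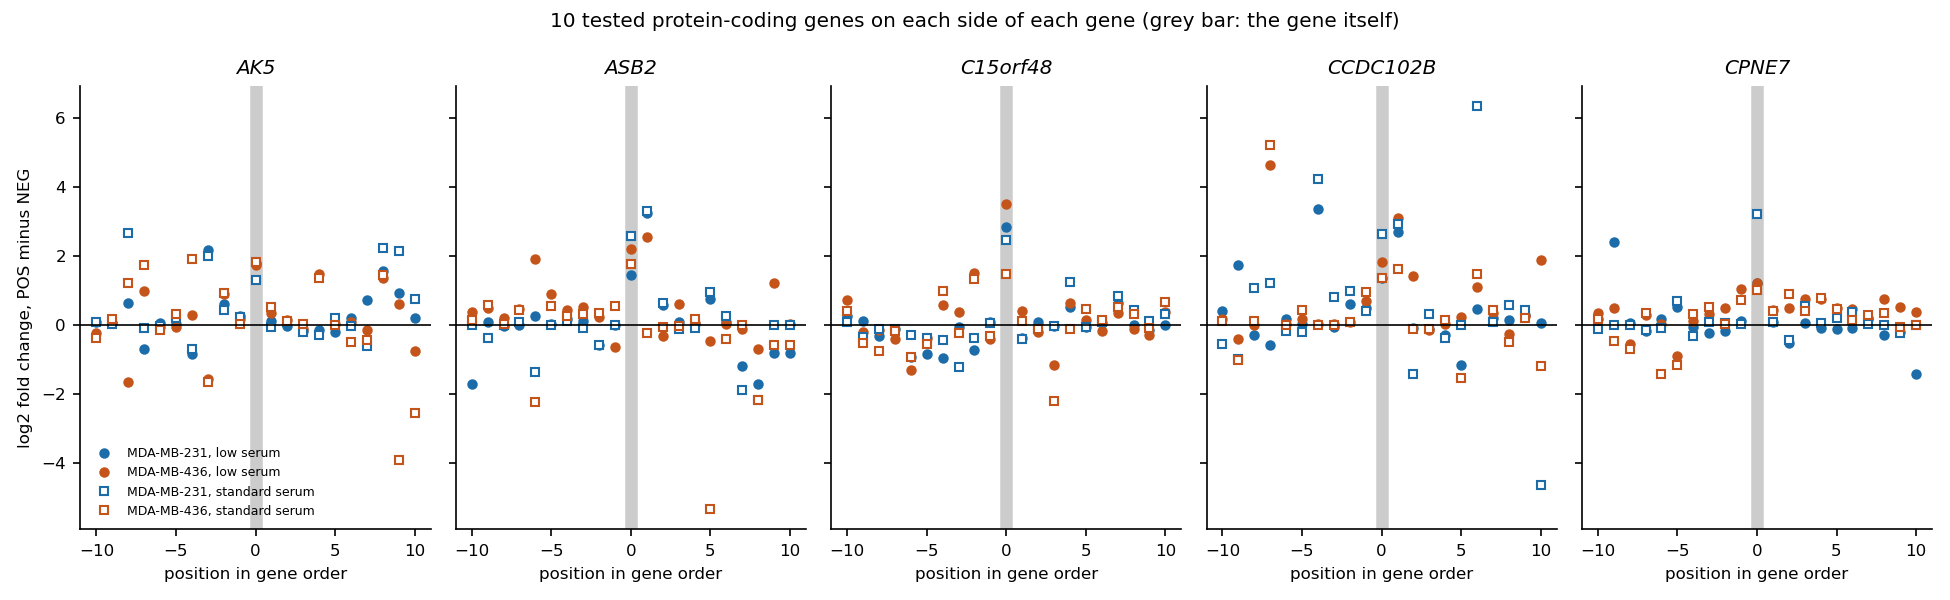
Log2 fold change of POS over NEG of the 10 tested protein-coding genes on each side of each gene, by position in gene order, in low serum (filled circles) and standard serum (open squares) for MDA-MB-231 (blue) and MDA-MB-436 (orange). At position 1 after CCDC102B, DOK6 lies between 1.61 and 3.09 in all 4 comparisons.

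The genes whose levels followed each member most closely were sought over all 16 libraries, with log2 CPM centred within each serum condition, among 12798 genes averaging 1 CPM or more. The libraries share lines and sublines, so that the correlations are descriptions. They were POLR3D (Pearson r = 0.948), SEMA3E (0.936) and BEX2 (0.929) for AK5, and CNDP2 (0.964), ERAP1 (0.963) and ZNF624 (0.960) for ASB2. For C15orf48 they were TMX4 (0.977), CX3CL1 (0.962) and LARS2 (0.955). For CCDC102B they were JAKMIP2 (0.950), C15orf48 (0.943) and INHBA (0.942), and for CPNE7 they were HES7 (0.973), ZMAT1 (0.956) and AHI1 (0.956). C15orf48 is thus the only one of the 5 genes found among the 3 closest of another. SEMA3E, CX3CL1, JAKMIP2, INHBA and C15orf48 are themselves among the 55 genes, which the POS and NEG values of these same libraries chose.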

How the data were processed

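RNA was sequenced from 16 cultures, with the groups taken from the sample titles and 2 replicates per group. The labels name them biological replicates. The counts were deposited by the authors as whole read pairs per gene, per the methods from alignment with STAR to hg19 and counting on Gencode v19 genes, without normalization. The authors also deposited TPM, whose calculation is not given in the sources used here. The labels name 1 stranded mRNA kit for all libraries, while the methods describe ribosomal depletion for low serum, and which strand column was counted is not stated.

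Serum conditions were fitted separately. Symbols and biotypes came from Gencode v44 lifted to GRCh37, with 2282 of 57820 rows unmatched. Protein-coding genes with at least 10 counts over 8 libraries were tested (16069 in low and 15414 in standard serum) with TMM factors and edgeR's robust quasi-likelihood model of 4 groups. SE is |log2 fold change| over the root of the F statistic. Alternatives were DESeq2, its size factors, other filters, all biotypes, the replicate number as a block, leaving out each library, and limma-trend on log2(TPM + 1) and log2(TPM + 0.1). A test of the difference between the lines in the response of the partner and neighbour genes was added after the data were examined. The scripts were tested on simulated data.

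The members, lists and tests were chosen with earlier results of these data known. The text names the members, list genes called (at most 6 per list and comparison) with NDUFA4, FLNA and CCDC102A, nearest neighbours, the 3 closest genes by correlation and 2 genes on each side of the selection edge. Some genes of these rules and of the marker lists are not reported here. Tools were edgeR 4.0.16, limma 3.58.1 and DESeq2 1.42.0 in R 4.3.3, with pandas 2.3.3 and matplotlib 3.10.9 in Python 3.11.15.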

Additional observations from a re-analysis of the deposited data

Results flagged for a closer look

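The response of 5 partner or neighbour genes differed between the lines by edgeR's test of the difference itself, which was added after the data were examined, with adjustment over all genes. Of the 24 partner and neighbour genes tested, 2 (low serum) and 5 (standard serum) passed the test and fold threshold, beside 11.7% and 13.8% of all genes, and the 24 include genes already chosen as called. Each value is the log2 fold change of POS over NEG in MDA-MB-231 minus that in MDA-MB-436, with SE. CUL5 differed by −3.74 ± 0.11 (low serum) and −5.40 ± 0.18 (standard serum; adjusted p = 2.13e-26 and 1.57e-13). CPNE2 differed by −1.20 ± 0.12 in standard serum (adjusted p = 4.54e-07), and by −0.94 ± 0.10 in low serum, under the fold threshold. FLNC differed by 1.33 ± 0.13 in standard serum (adjusted p = 3.2e-07), with log2 fold changes of −0.38 and −1.72 in the lines. DOK6, the gene after CCDC102B, differed by 1.33 ± 0.24 in standard serum, where it was higher in POS of both lines. DOK6 is among the 55 genes, so both terms of its difference took part in choosing it. Its place in the counts above is therefore a description and not a test. CPNE4 differed by −3.95 ± 1.00 (low serum) and −2.28 ± 0.78 (standard serum; adjusted p = 0.00111 and 0.0254), at low counts. The cause of these differences was not tested.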

How the results depend on the processing

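All 20 log2 fold changes of the 5 genes kept their sign under every alternative, and 296 of 320 values moved by less than the spread between replicates. Many of the 320 come from fits without 1 library. Leaving out a library of the other line hardly touches these values, and leaving out 1 of 2 replicates moves them by an amount tied to that same spread. The 296 are therefore not a measure of robustness. The 24 other values came from log2 TPM, where a pseudocount compresses the changes of low genes. With log2(TPM + 1), 1 of 5 genes passed the threshold in each low serum comparison and 3 in MDA-MB-436 in standard serum, and 1 was called for the line difference in standard serum. On the same scale AK5 was under the fold threshold in MDA-MB-231 in standard serum (0.82). With log2(TPM + 0.1), CPNE7 was under the fold threshold in both low serum comparisons (0.96 and 0.95), and for the line difference in low serum CCDC102B was not called (0.84) and AK5 was (−1.17). With log2(TPM + 1) the AK5 line difference in standard serum reversed to −0.0259. The members called fell to 4 of 5, with CPNE7 not called, without MDA-MB-231 POS replicate 1 in low serum, and without MDA-MB-436 NEG replicate 1, NEG replicate 2 or POS replicate 2 in standard serum.

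Of 224 counts of members and partner genes, 192 stayed within 1.5 times their value and 32 did not, most often for partner genes higher in MDA-MB-231 POS in standard serum. The cause was not tested. Those higher in MDA-MB-231 POS in standard serum (2) became 0 with DESeq2 or log2(TPM + 1), and 1 with all biotypes, with median-of-ratios factors, without the count filter, or with the replicate block. Those higher in MDA-MB-436 POS in low serum (3) became 1 with DESeq2 or either TPM scale, and in standard serum (4) became 1 with log2(TPM + 1). Those lower in MDA-MB-231 POS became 0 with log2(TPM + 1) in both serum conditions and 0 with DESeq2 in low serum, and those lower in MDA-MB-436 POS in low serum (0) became 2 on both TPM scales. Leaving out 1 library gave 0 to 1 higher and 0 to 2 lower in MDA-MB-231 POS in low serum, 0 to 2 higher and 1 to 2 lower in standard serum, and 1 to 3 higher and 0 to 1 lower in MDA-MB-436 POS in low serum.

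Partner genes near 0 changed sign. FLNA in MDA-MB-231 POS in low serum was −0.0578 with log2(TPM + 0.1) and −0.0577 with log2(TPM + 1), and NDUFA4 was −0.0599 and −0.0591. NDUFA4 in MDA-MB-436 POS was −0.0303 with DESeq2, −0.0300 with median-of-ratios factors, −0.0047 with all biotypes, −0.0271 with the filterByExpr filter and −0.24 on both TPM scales in low serum, and 0.0157 with log2(TPM + 0.1) and 0.0156 with log2(TPM + 1) in standard serum. CCDC102A in MDA-MB-436 POS in low serum was −0.17 with log2(TPM + 0.1) and −0.16 with log2(TPM + 1). Leaving out 1 library gave −0.0665 to 0.14 for CCDC102A, and −0.0790 to 0.0864 in low and −0.22 to 0.0421 in standard serum for NDUFA4.

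The groups share replicate numbers, but the labels do not pair them, and the deviations of same-numbered libraries correlated at −0.06 to 0.11. The replicate block changed no count of the 5 genes.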
